A study of Mus musculus with 3 samples.

Results

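The genes described here are 10 components at the end of the Hippo signalling pathway. They are the 4 TEAD transcription factors (Tead1, Tead2, Tead3 and Tead4), the coactivators Yap1 and Wwtr1 (the gene for TAZ), the kinases Lats1 and Lats2, and the angiomotins Amot and Amotl2. They were taken as a named list, with earlier results of these data known, and are 10 of the 23154 genes counted in single cells of the mouse blastocyst. All 10 had a row in each count table and at least 1 count, and 9 passed the filter on low counts. Tead3 did not.

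TEAD proteins bind DNA but need a coactivator, YAP or TAZ, to switch genes on. LATS kinases phosphorylate both coactivators and keep them in the cytoplasm, and angiomotins bind the coactivators and help LATS act on them. In the preimplantation embryo the outer, polarised cells have low Hippo activity, so YAP enters the nucleus and works with TEAD4 to turn on Cdx2 and Gata3, which specify trophectoderm (TE). In the inner cells AMOT and LATS are active, YAP stays in the cytoplasm, and the inner cell mass (ICM) forms. Much of this control acts on proteins, which transcript counts do not measure.

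Embryos carried a Klf2-H2B-mCherry reporter, were taken at embryonic day 2.5 and grown in static and in shaking culture. They were dissociated as blastocysts, labelled embryonic day 3.5. Single cells were picked by hand from mCherry-positive embryos into 3 libraries of 96 cell barcodes, called replicates 1 to 3, which form 1 group. The labels do not say which cell came from which culture, so static and shaking culture cannot be told apart. They also do not say how many embryos were pooled or whether the libraries are separate litters, so p-values reflect only how much these libraries vary, which may be technical.

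Of 288 barcodes, the 225 with at least 2000 genes with a count were kept as cells (83, 64 and 78 per library). The library totals were 27610866 to 54444536 counts, and the median cell held 286484, 345413.5 and 608733.5 counts in replicates 1 to 3. Clustering on 53 marker genes, none of them among the 10, gave 93 TE-like cells (28 to 35 per library), 105 ICM-like cells (31 to 40) and 27 cells that no marker list named. TE markers summed to 5632 to 8388 CPM (counts scaled to a total of 1000000) in the TE-like cells of the libraries and to 499.6 to 1095 CPM in ICM-like cells. The 6 ICM markers summed to 1125 to 1477 CPM in ICM-like and 536.7 to 753.8 CPM in TE-like cells, although Sox2 among them is listed at 0 in every cell. The 10 epiblast markers also counted towards the ICM-like name. Their sums overlapped, at 1226 to 2893 CPM in ICM-like and 748 to 2624 CPM in TE-like cells. Marker sums for blood, fibroblast and oviduct epithelium were at most 29.3 CPM in both named classes. Those for oocyte and for cumulus and granulosa cells reached 51.67 and 74.54 CPM. Of the 27 unnamed cells, 21 came from replicate 1, all of them in barcodes 33 to 64.

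TEAD factors recognise a short DNA motif, GGAATG, which reads CATTCC on the other strand. RefSeq promoter windows, from 250 bases before to 50 after each transcript start (GRCm38.p6, mm10), matched 8 of the 10 genes by symbol, with 12 windows. Tead1 and Tead4 had no entry. The motif stood on either strand in windows of 5 of the 8 genes, namely Wwtr1, Yap1, Amotl2, Lats2 and Tead3, where 16.6% of all genes had it in any window. By window it was in 7 of 12, against 14.7% of all 32851 windows. Windows of 1 gene can overlap. Both Wwtr1 windows hold the same match, and the 7 windows hold 8 distinct matches, 4 of them in Tead3. The other Lats2 window had none. The windows of Cdx2 and Gata3 had no match. The 3 windows below are those of Wwtr1, for which the cell classes differed, and of Amotl2 and Lats2, which are known in other cells as genes that YAP and TEAD switch on. They are written 5′ to 3′ along the gene's strand in lower case with the motif in capitals. A match describes these letters and does not show binding.
Wwtr1, chr3:57575861-57576160, minus strand: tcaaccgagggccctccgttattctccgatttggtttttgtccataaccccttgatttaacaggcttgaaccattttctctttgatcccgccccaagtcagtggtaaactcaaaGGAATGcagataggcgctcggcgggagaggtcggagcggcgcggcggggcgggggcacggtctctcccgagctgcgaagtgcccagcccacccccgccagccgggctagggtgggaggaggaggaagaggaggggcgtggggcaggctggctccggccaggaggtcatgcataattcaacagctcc
Amotl2, chr9:102717554-102717853, plus strand: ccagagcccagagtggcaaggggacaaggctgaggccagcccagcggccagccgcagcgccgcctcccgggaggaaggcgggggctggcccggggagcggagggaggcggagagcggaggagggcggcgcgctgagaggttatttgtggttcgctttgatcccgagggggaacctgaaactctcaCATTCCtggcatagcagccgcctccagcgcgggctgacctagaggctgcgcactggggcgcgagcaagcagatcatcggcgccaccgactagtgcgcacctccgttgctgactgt
Lats2, chr14:57746074-57746373, minus strand: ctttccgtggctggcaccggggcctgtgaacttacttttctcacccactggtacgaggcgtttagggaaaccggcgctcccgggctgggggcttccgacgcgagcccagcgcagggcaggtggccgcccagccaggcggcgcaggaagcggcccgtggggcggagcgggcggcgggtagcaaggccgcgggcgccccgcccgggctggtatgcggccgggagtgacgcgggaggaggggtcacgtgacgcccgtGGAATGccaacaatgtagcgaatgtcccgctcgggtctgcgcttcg

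The first comparison asked which of the 10 genes differ between the outer and inner lineages. Wwtr1 was the single gene to pass the test, and it was lower in TE-like cells. Tead4, the TEAD factor required for TE formation, and Amotl2 were higher in TE-like cells of all 3 libraries with no overlap between the classes, but neither passed the threshold after adjustment. Yap1, Lats1, Lats2, Tead2 and Amot overlapped between the classes. Levels are CPM of the summed counts of a class in a library. Since they are 3′ counts with no length scale that ranks genes, the order is given between classes, not between genes.

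**Figure D1:**
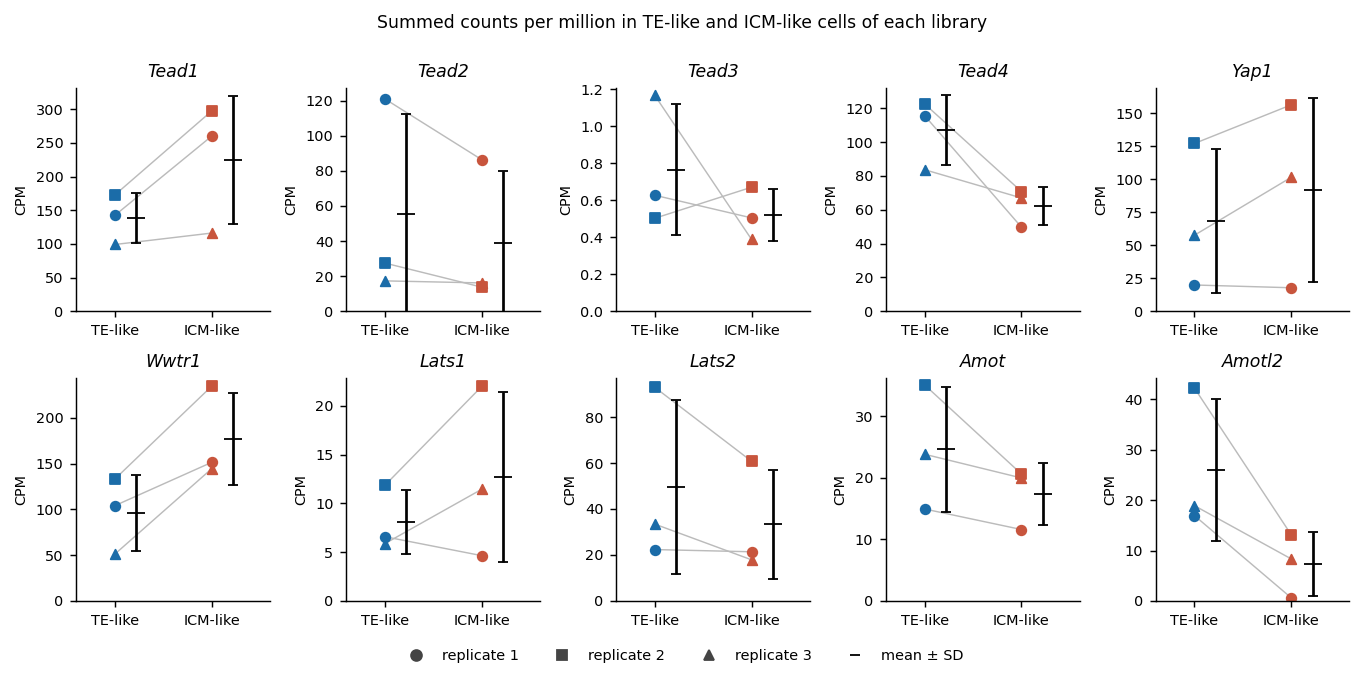
CPM of each of the 10 genes (y axis, from 0, a scale per panel) in the summed TE-like and ICM-like cells of each library (x axis). Points are libraries, joined within a library, and bars are the mean ± SD over the 3 libraries, with the lower bar ended at 0 where the SD exceeds the mean. Wwtr1 sits at 51.3 to 133 CPM in TE-like and 145 to 235 CPM in ICM-like cells, while Tead4 and Amotl2 are higher in TE-like cells with no overlap.

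Among the TEAD factors, Tead4 (chr6:128224288-128300823, minus strand, GENCODE M21 on mm10) was at 116, 122.6 and 83.7 CPM in TE-like cells of replicates 1 to 3 and at 49.8, 70.8 and 67.0 CPM in ICM-like cells. The lowest TE-like library was above the highest ICM-like one. The means were 107 ± 20.7 and 62.5 ± 11.2 CPM (SD, n = 3 libraries). The fitted log2 fold change of TE-like over ICM-like was 0.82 (SE 0.23), with an adjusted p of 0.0782 (edgeR's quasi-likelihood test, Benjamini-Hochberg over all genes). With DESeq2 the adjusted p was 0.00825, and Tead4 passed under 7 of 20 alternatives. With 1 library left out, its log2 fold change was 0.60 to 1.05.

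Tead1, a broadly expressed TEAD gene, stood at 143, 173 and 99.1 CPM in TE-like cells. In ICM-like cells it stood at 260, 297 and 116 CPM. It was lower in TE-like cells within each library, but the classes overlapped, since replicate 3 was low in both. The log2 fold change of the Tead1 sums was -0.58 (SE 0.17) with an edgeR adjusted p of 0.0951. Tead1 passed under 1 alternative, DESeq2, with an adjusted p of 0.0281.

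Tead2, a TEAD gene of the early embryo whose exons overlap Cd37 on the other strand, differed more between libraries than between classes. It was at 121, 27.5 and 17.3 CPM in TE-like and at 86.4, 13.8 and 16.2 CPM in ICM-like cells. Replicate 1 was the highest library in both classes. The edgeR adjusted p was 0.288 for a log2 fold change of 0.56. Tead3, known from later trophoblast, had 43 counts over all TE-like cells and 25 over all ICM-like cells. It was counted in 16.1% and 11.4% of the cells, and no fold is given at this depth.

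Of the coactivators, Wwtr1 (chr3:57455649-57575910, minus strand) was at 104, 133 and 51.3 CPM in TE-like cells and at 151, 235 and 145 CPM in ICM-like cells. Every ICM-like library was above every TE-like one. The means were 96.2 ± 41.6 and 177 ± 50.2 CPM (SD, n = 3 libraries). The log2 fold change was -0.91 (SE 0.21), which is 1.88-fold lower in TE-like cells, with an edgeR adjusted p of 0.0399. This call rested on all 3 libraries and on the pairing by library. The adjusted p was 0.0916, 0.189 and 0.179 without replicate 1, 2 or 3 and 0.9999 without the replicate block. The log2 fold change was below 0 in all 20 alternatives, between -2.69 and -0.51, and passed in 12 of them.

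Yap1 did not pass the test. It was at 19.96, 127 and 57.7 CPM in TE-like cells and at 17.9, 157 and 102 CPM in ICM-like cells. Replicate 1 was the lowest library in both classes, and the classes overlapped almost completely. The log2 fold change was -0.29 (SE 0.24) with an edgeR adjusted p of 0.581, and it did not pass in any of 20 alternatives. Exons of Yap1 overlap Gm20416 on the other strand, and which strand was counted is not stated in the sources used here. Yap1 and Wwtr1 encode related proteins, but a test of one gene's difference against the other's was not made.

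For both kinase genes the classes overlapped. Lats1 was at 6.58, 11.8 and 5.87 CPM in TE-like and at 4.64, 21.97 and 11.4 CPM in ICM-like cells. Lats2 was at 22.4, 92.9 and 33.4 CPM in TE-like and at 21.4, 60.8 and 17.9 CPM in ICM-like cells. Lats2 was higher in TE-like cells of all 3 libraries, yet its spread over libraries within a class was larger than its difference within a library. The edgeR adjusted p was 0.738 for Lats1 and 0.322 for Lats2, with log2 fold changes of -0.43 (SE 0.54) and 0.57 (SE 0.29). Exons of Lats2 overlap Gm49361 on the same strand.

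Both angiomotins were higher in TE-like cells of all 3 libraries, and neither passed; one was not tested against the other. Amotl2 (chr9:102716672-102733418, plus strand) was at 16.9, 42.2 and 18.9 CPM in TE-like cells and at 0.605, 13.1 and 8.33 CPM in ICM-like cells. The classes did not overlap, and the ICM-like cells of replicate 1 held 6 counts in all. Amotl2 had a count in 60.2% of the 93 TE-like and 14.3% of the 105 ICM-like cells. After thinning every cell to 50000 counts, which left out 23 shallower cells, these shares were 42.2% and 7.14%. The log2 fold change was 2.34 (SE 0.69), the largest in size among the 9 genes tested, with an edgeR adjusted p of 0.0951. It passed in 7 of the 19 alternatives that tested it, among them thinned counts with an adjusted p of 0.0211 and DESeq2 with 0.00109.

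Amot, on chromosome X, was at 14.9, 35.1 and 23.8 CPM in TE-like and at 11.6, 20.6 and 19.98 CPM in ICM-like cells. It was higher in TE-like cells of each library, but the classes overlapped. The log2 fold change was 0.50 (SE 0.35) with an edgeR adjusted p of 0.498.

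Apart from Tead3 and Amotl2, each gene had a count in at least 49.5% of the cells of either class. Tead1 had one in 97.8% of TE-like and 98.1% of ICM-like cells, and Tead4 in 92.5% and 88.6%. Wwtr1 had a count in 87.1% and 94.3% of the cells, and in 78.3% and 92.9% after thinning. Yap1 had one in 87.1% and 83.8%, and in 72.3% and 66.3% after thinning. The kinases were counted in fewer cells, Lats1 in 58.1% and 49.5% and Lats2 in 74.2% and 78.1%. These shares pool the cells of 3 libraries of unequal depth and carry no test.

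In this fit 1 of the 9 genes tested passed, against 5.64% of all 12495 genes. It was among those lower in TE-like cells, of which there were 257 (2.06%), with 448 genes higher (3.59%). At an unadjusted p below 0.05 there were 4 of 9, namely Wwtr1, Tead4, Tead1 and Amotl2, against 19.4% of all genes. The libraries of the classes did not overlap for 3 of 9, against 9.81% of all genes, and the sign was the same in all 3 libraries for 7 of 9, against 43.3%. The median size of the log2 fold change was 0.57 for the 9 genes and 0.45 for all. Power was limited. In data simulated from these libraries, 19.15% of genes changed 2-fold and 62.50% of those changed 4-fold were recovered among 12324 genes.

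**Figure D2:**
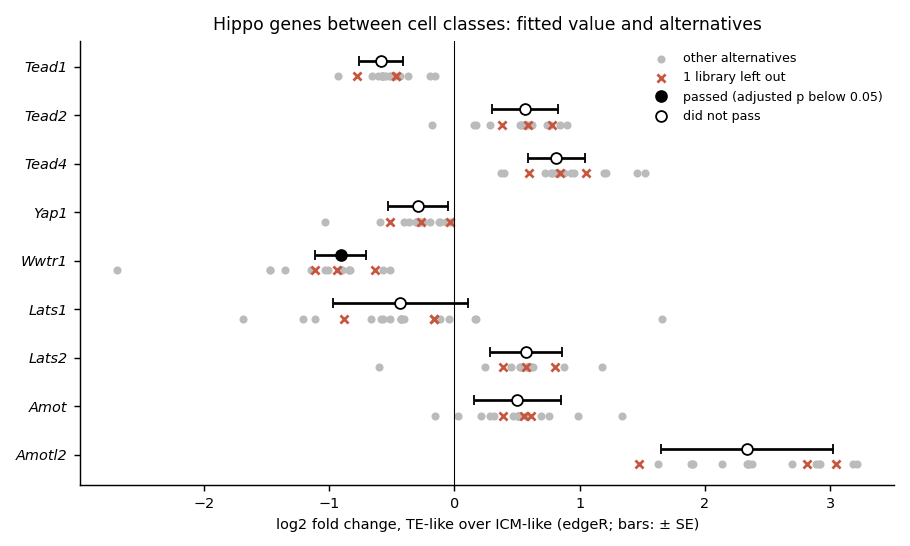
Fitted log2 fold change of TE-like over ICM-like cells (x axis) for the 9 genes tested (y axis), as circles with bars of ± SE; a filled circle passed the adjusted threshold. Crosses leave out 1 library and grey points are the other alternatives. Wwtr1 is the single filled circle, and Tead1, Tead4, Yap1, Wwtr1 and Amotl2 stay on 1 side of 0.

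Other core and upstream genes of the pathway passed at a share near that of all genes. Of 29, 28 were tested, none was higher and 2 were lower in TE-like cells with edgeR, against 3.59% and 2.06% of all genes. At an unadjusted p below 0.05 there were 6, against 19.4% of all. The 2 that fell were Stk38, a kinase related to LATS, with a mean of 90.2 CPM in TE-like and 171 CPM in ICM-like cells (edgeR adjusted p of 0.0138), and Fat1, a giant cadherin, with 33.2 and 73.7 CPM (adjusted p of 0.0364). Both lost the call when any 1 library was left out. The list's median log2 fold change was 0.06, against -0.02 for all genes. With DESeq2, 3 were higher and 3 lower, the lower ones being Stk38, Fat1 and Map4k4. Map4k4, named after its values were seen, had means of 9.27 CPM in TE-like and 28.7 CPM in ICM-like cells (DESeq2 adjusted p of 0.0284, edgeR 0.136). The higher ones, named after their values were seen, were Vgll4, which competes with YAP for TEAD, at 85.7 and 26.5 CPM (DESeq2 adjusted p of 0.000348), Limd1 (0.00773) and Ajuba (0.0153), both LIM proteins that bind LATS. With edgeR their adjusted p was 0.0689, 0.0850 and 0.134, and Vgll4 passed without replicate 2 (0.0216).

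Of the upstream core of the pathway, Nf2, Stk3 and Stk4 were present in both classes. Nf2, which brings LATS to the membrane, had a mean of 55.3 ± 15.6 CPM in TE-like and 82.3 ± 45.1 CPM in ICM-like cells. The MST kinases that phosphorylate LATS were at 79.3 ± 49.8 and 99.6 ± 69.3 CPM for Stk3 and at 46.4 ± 6.36 and 39.4 ± 15.2 CPM for Stk4 (SD, n = 3 libraries). Their adaptor Sav1 had means of 2.29 and 0.774 CPM. None of the 4 passed, with edgeR adjusted p of 0.386, 0.624, 0.555 and 0.511 in that order.

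Few known targets of YAP and TEAD could be measured. Of 19 genes of a target signature drawn from other cell types, 16 had a count and 8 passed the filter. Ccn1 and Ccn2, the most used reporters of YAP activity, were listed under the older symbols Cyr61 and Ctgf. Both were at 0 in every cell, as was Fjx1. Such a 0 cannot tell a silent gene from a row that was not counted. Of the 8, 1 was higher in TE-like cells and none lower, against 3.59% and 2.06% of all genes. This was Myof, a membrane repair protein, at 15.04, 35.6 and 25.7 CPM in TE-like cells and at 2.42, 0 and 0.600 CPM in ICM-like cells (edgeR adjusted p of 0.0364, lost without any 1 library). The median log2 fold change of the 8 was -0.40.

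A list of polarity, contractility and cell junction genes that act upstream of Hippo had 19 tested genes. With edgeR 4 were higher and none was lower in TE-like cells, against 3.59% and 2.06% of all genes. Of these 4, Cdh1 and Ctnna1 are junction genes. The list holds 20 genes, its median was 0.33, and 8 genes had an unadjusted p below 0.05, against 19.4% of all. With DESeq2, 7 were higher and 1 was lower. The lower one, Ezr, which links actin to the apical membrane and is named after its values were seen, had means of 92.8 and 151.8 CPM (edgeR adjusted p of 0.0685, DESeq2 0.0129). Myh9, non-muscle myosin heavy chain, was at 235 ± 54.0 and 66.4 ± 26.5 CPM (edgeR adjusted p of 0.00241). Cdh1, the epithelial cadherin, was at 116, 1046 and 370 CPM in TE-like and at 52.8, 675 and 195 CPM in ICM-like cells, 1.91-fold higher in the fit (adjusted p of 0.00461). Cdc42, a polarity GTPase, and Ctnna1, which links cadherin to actin, were both 1.47-fold higher (adjusted p of 0.00395 and 0.0378). Myh9 and Cdh1 still passed with any 1 library left out, whereas Ctnna1 lost the call each time and Cdc42 lost it without replicate 2 or 3 (0.0551 and 0.0527). None of the list genes named here passed without the replicate block. Patj, under the older symbol Inadl, was listed at 0, with the same limit as for Ccn1 and Ccn2.

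At a finer resolution, chosen after seeing the data, the TE-like cells fell into cluster A (34 cells) and cluster B (57 cells). The other 2 TE-like cells joined an ICM-like cluster. Cdx2 and Gata3 were among the markers that drew the clusters. Gata3 was higher in cluster A of all 3 libraries, and Cdx2 in 2 of 3, since in replicate 1 it was at 76.4 CPM in cluster A and 123.3 CPM in cluster B. Neither passed with edgeR (adjusted p of 0.254 and 0.383). In cluster A Tead4 was at 120, 194 and 121 CPM, against 94.3, 66.4 and 65.4 CPM in cluster B. Wwtr1 was at 93.9, 215 and 83.5 CPM in cluster A, against 81.6, 63.3 and 35.4 CPM in cluster B. Both genes were higher in cluster A of all 3 libraries. For Tead4 the clusters did not overlap. For Wwtr1, too, the lowest library of cluster A was above the highest of cluster B. How many of all genes did so between these clusters, or kept 1 direction in all 3 libraries, was not counted.

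None of the 9 genes tested passed between these clusters, where edgeR called 1 of 10932 genes (0.00915%). At an unadjusted p below 0.05 there were 2 genes, Tead4 and Wwtr1, against 11.1% of all genes, with log2 fold changes of 0.86 (SE 0.33, adjusted p of 0.383) and 1.01 (SE 0.38, adjusted p of 0.379). DESeq2 called none of the 9. Amot leaned the other way, at 11.7, 27.6 and 10.1 CPM in cluster A and 21.2, 43.0 and 30.6 CPM in cluster B (log2 fold change of -1.10, SE 0.49, adjusted p of 0.444). Of the 34 cells of cluster A, 33 lay in barcodes 1 to 32, beside 13 cells of cluster B. With 3 to 6 such cells of cluster B per library, the clusters were not compared inside that range, and the part of barcode position was not tested.

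The split bears on the lineage comparison. Set against the ICM-like cells alone, cluster A had a Wwtr1 log2 fold change of -0.51 (edgeR adjusted p of 0.205) and cluster B one of -1.47 (0.0349). For Tead4 the order was the opposite, 1.21 for cluster A (0.0174) and 0.40 for cluster B (0.630). For Amotl2 the values were 2.91 (0.0227) and 1.90 (0.442). Within barcodes 1 to 32 alone the Wwtr1 value was -0.57 (0.245) and the Tead4 value 1.52 (0.0247).

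**Figure D3:**
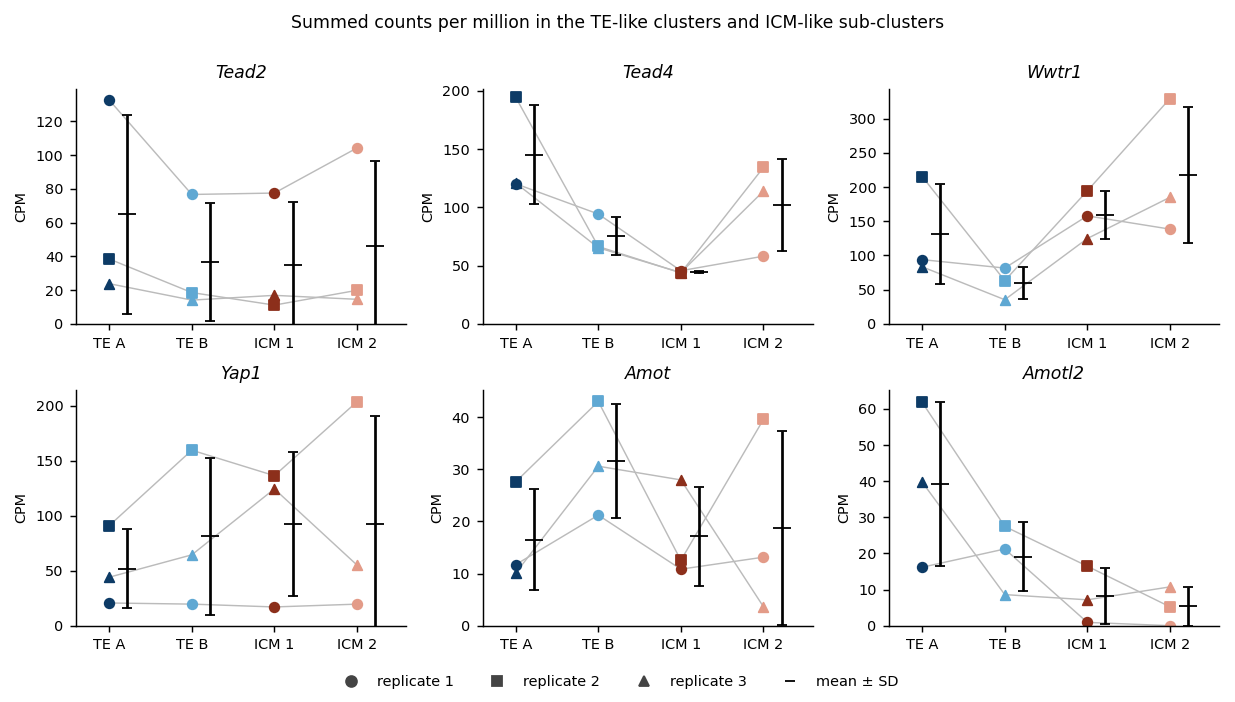
CPM of the genes (y axis, from 0, a scale per panel) in TE-like clusters A and B and ICM-like sub-clusters 1 and 2 of each library (x axis). Points are libraries, lines join the values of 1 library, and bars are the mean ± SD over 3 libraries, ended at 0 where the SD exceeds the mean. Tead4 and Wwtr1 are higher in cluster A than in cluster B of each library, and Tead4 is near 44 CPM in sub-cluster 1.

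Within the ICM-like cells, clustering on epiblast and primitive endoderm markers gave sub-cluster 1 (70 cells), led by Serpinh1, Spp1, Fn1 and Col4a2, and sub-cluster 2 (35 cells), which no marker list named. The scores of both epiblast and primitive endoderm markers were higher in sub-cluster 1, so no epiblast-like group could be set against a primitive endoderm-like one. Tead4 was at 45.6, 43.8 and 44.0 CPM in sub-cluster 1 and at 58.1, 134 and 114 CPM in sub-cluster 2, with no overlap. Its log2 fold change of sub-cluster 1 over 2 was -1.22 (SE 0.40) with an edgeR adjusted p of 0.348. How many of all genes did not overlap between the sub-clusters was not counted. None of the 9 genes passed with edgeR, which called 15 of 11262 genes (0.133%, of which 0.0355% were higher and 0.0977% lower in sub-cluster 1), and Tead4 alone had an unadjusted p below 0.05, against 9.94% of all genes. DESeq2 called Tead4. Cdx2, a mean of 40.5 CPM in sub-cluster 2 and 2.97 CPM in sub-cluster 1, was higher in sub-cluster 2 of all 3 libraries (edgeR adjusted p of 0.283, DESeq2 0.00183). Gata3, with means of 137 and 65.4 CPM, was higher there in replicates 1 and 2 and lower in replicate 3 (0.426 and 0.0663). In replicates 2 and 3 most cells of sub-cluster 2 lay in barcodes 65 to 96, and the part of barcode position was not tested.

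The relation to Cdx2 and Gata3 was then read from cell to cell inside each class and library, as Spearman's rho of log2(CPM + 1). These are descriptions over 93 TE-like and 105 ICM-like cells, and cells of 1 library share its depth and preparation. Tead4 had a rho above 0 with Cdx2 in all 6 sets of cells. Its mean over the 3 libraries was 0.340 in TE-like cells (0.151 to 0.519) and 0.350 in ICM-like cells (0.284 to 0.394). Beside it, the median over all genes detected in at least 50% of the cells was 0.10 and 0.075, and the 95th percentile was 0.439 and 0.359. The means lay inside that range, while in 3 of the 6 sets the rho of Tead4 was above the set's own 95th percentile. These were the TE-like cells of replicate 3 and the ICM-like cells of replicates 2 and 3. Among TE-like cells of replicates 2 and 3, Cdx2 was at 199 and 85.6 CPM in cluster A and at 6.01 and 5.93 CPM in cluster B. In replicate 1 it was higher in cluster B. Tead4 was higher in cluster A of each library, and nearly all cells of cluster A lay in barcodes 1 to 32. The part of this split in the rho was not tested. In ICM-like cells the relation rests on few cells, since 32 of the 105 had a Cdx2 count. After thinning the TE-like mean of Tead4 with Cdx2 was 0.454 (0.129 to 0.672), with a 95th percentile of 0.442. The lowest value, 0.129 in replicate 1, was below that library's own 95th percentile of 0.338. The thinned ICM-like mean of 0.102 cannot be read, since 13 of 98 cells then had a Cdx2 count.

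Amotl2 had the highest mean rho with Gata3 in TE-like cells, 0.357 (0.291 to 0.422), where the median over all genes was 0.036 and the 95th percentile 0.424. After thinning it was 0.247 (-0.007 to 0.427), below the 0.303 of Tead4. With Cdx2 its mean was 0.304 in TE-like cells, from -0.033 to 0.642, and 0.363 in ICM-like cells, from 0.251 to 0.450. Since 15 of the 105 ICM-like cells had an Amotl2 count, this last value rests on few cells. Tead4 with Gata3 had a mean of 0.313 in TE-like cells but ranged from 0.015 to 0.571, and in ICM-like cells its sign differed between libraries.

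In TE-like cells, 1 relation each of Yap1 and Amot was below 0 in all 3 libraries with all counts. Yap1 had a mean rho with Cdx2 of -0.134 (-0.196 to -0.063) and, after thinning, of -0.228 (-0.258 to -0.208). Amot had a mean rho with Gata3 of -0.220 (-0.301 to -0.129), and -0.111 after thinning, with a sign that then differed between libraries. With all counts the sign differed between libraries for Yap1 with Gata3 (mean of -0.111) and for Amot with Cdx2 (mean of 0.025). After thinning, Yap1 with Gata3 was below 0 in all 3 libraries, with a mean of -0.308 (-0.375 to -0.210). The 5th percentile of all genes there was -0.359. For Lats1, Lats2 and Tead1 with Cdx2 the sign differed between libraries in both classes with all counts. In TE-like cells Wwtr1 with Cdx2 had a mean of 0.187 (-0.048 to 0.396) and, after thinning, of 0.296 (0.123 to 0.532). With Gata3 its sign differed between libraries before and after thinning. At these depths such weak values are not findings about the genes.

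**Figure D4:**
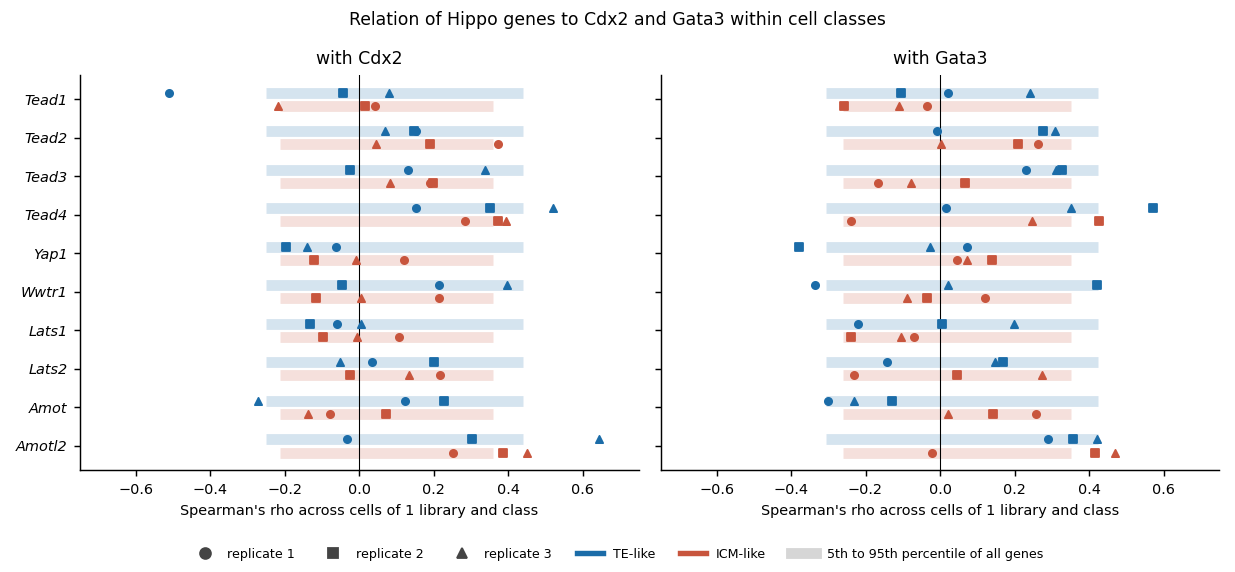
Spearman's rho of each gene with Cdx2 and with Gata3 (x axis) across TE-like or ICM-like cells, per library as points, with the genes on the y axis. Pale bands run from the 5th to the 95th percentile of all genes detected in at least 50% of the cells, blue for TE-like and red for ICM-like. Tead4 with Cdx2 lies above 0 in all 6 sets, and its means of 0.340 and 0.350 lie inside the bands.

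Among the 45 pairs of the 10 genes, the highest mean rho over the 6 sets was that of Tead4 with Amotl2, 0.275 (0.014 to 0.411), followed by Tead4 with Lats2, 0.216 (0.007 to 0.475). The median over pairs was 0.050. The genes whose pattern was most like that of Wwtr1 over 198 TE-like and ICM-like cells were Isyna1, an enzyme of inositol synthesis, with a mean rho of 0.413 over libraries, and Adrm1, a proteasome subunit, with 0.402. The comparison covered 5974 genes, with a median of 0.040 and a 95th percentile of 0.237, and takes in the difference between the classes.

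The unnamed cells of replicate 1 differed widely from the named cells, and not only in these genes. In the 21 unnamed against the 62 named cells of that library, Tead1, Yap1, Lats1, Lats2 and Tead4 were higher and Wwtr1 was lower, each by more than 4-fold. This is 1 library with no test, and 47% of 12495 genes passed 4-fold there (19.7% higher, 27.3% lower), against 6 of the 9 genes, a share to be read with that background. Median cell totals were close, at 263200 and 289600 counts.

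Wwtr1 was at 15.4 CPM in the unnamed cells (95% Poisson interval 13.2 to 17.9, counting error only) and at 128 CPM in the named ones (123.2 to 133), 8.33-fold lower. The median cell had 11.98 and 81.2 CPM. Yap1 went the other way, at 114 CPM (108 to 121) against 18.9 (17.0 to 20.9), and the median cell had 62.8 and 13.6 CPM. Tead1 was at 962 CPM against 202, with a median cell of 255 and 99.1 CPM. For these 3 genes the sums and the median cells stood in the same order.

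The sums of Tead4 and Lats2 leaned more on 1 cell. For Tead4 the median cells stood in the other order than the sums, and for Lats1 and Lats2 in the same order. Tead4 was at 557 CPM in the unnamed and 82.1 CPM in the named cells, but 1 cell held 54.1% of the counts and the median cell had 61.3 and 72.3 CPM. Lats2 was at 207 CPM against 21.9, with 45.7% of the counts in 1 cell and median cells at 18.02 and 12.2 CPM. Lats1 was at 26.6 and 5.60 CPM, with median cells at 17.4 and 0.888 CPM. Tead2, Amot and Amotl2 differed by less than 4-fold.

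Other markers also differed in these cells. The TE markers summed to 656.2 CPM in the unnamed and 3022 CPM in the named cells, and the ICM markers to 787.5 and 1122 CPM. The 6 oocyte markers summed to 451.9 and 38.09 CPM, of which Zp3 made up 434.6 and 31.0 CPM, while Zp1, Bmp15 and Oosp1 had no count in the unnamed cells. The part of these markers, and of the barcode range, in the levels of the 10 genes was not tested.

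**Figure D5:**
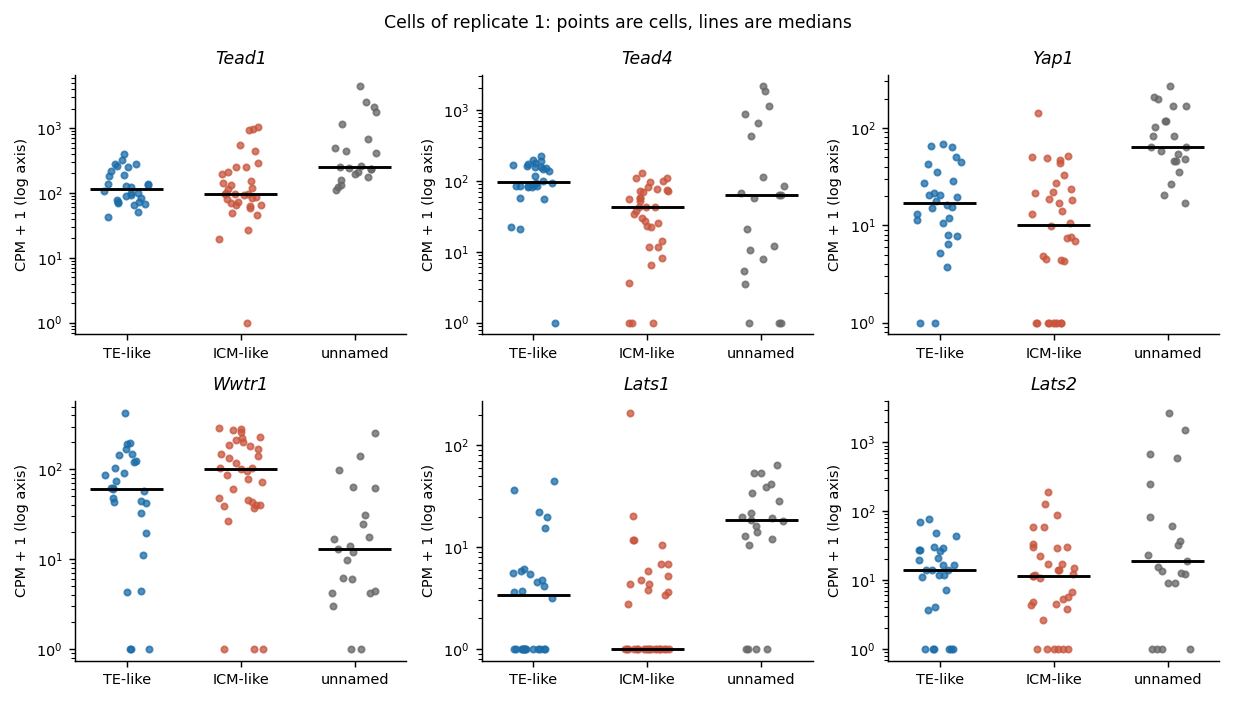
CPM + 1 on a log axis (y axis) of 6 of the genes in single cells of replicate 1, split into TE-like, ICM-like and unnamed cells (x axis). Points are cells and lines are the median cell. The unnamed cells are lower in Wwtr1 and higher in Yap1 and Tead1 by the median, while for Tead4 and Lats2 a few cells lie far above the rest.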

How the data were processed

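Single-cell RNA was sequenced in 3 libraries of mouse blastocyst cells with barcoded oligo(dT) primers and 3′ capture, per the labels. The authors deposited raw whole-number counts for each gene and barcode. CASAVA 1.8, HISAT2, HTSeq and the build mm10 appear in the submitters' processing notes. The sources used here do not state the aligner's version, the annotation, the strand setting or whether molecular identifiers were collapsed, so counts may be molecules or reads and intervals cover counting error only.

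Barcodes with at least 2000 genes were kept, with no doublet caller, since cells were picked by hand, and 0 cells were identical between libraries. Cells were clustered on 53 markers (log2(CPM + 1), 10 principal components, 15 neighbours, Leiden resolution 0.5 with leidenalg 0.10.2). A cluster was named where its marker score exceeded the other cells by 0.25 and at least 3 markers were detected. Counts were summed per class and library for classes with at least 8 cells, filtered with filterByExpr, scaled by TMM and tested with edgeR 4.0.16 in R 4.3.3 with the library as a block, with Benjamini-Hochberg adjustment at 0.05. The library was set as the block because both classes come out of the same libraries. As a check of this pairing, deviations from the class means correlated at 0.614, 0.570 and 0.384 within a library. P-values leave out the uncertainty of drawing classes on the same cells. The tests were checked on simulated counts.

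Alternatives used DESeq2 1.42.0, limma 3.58.1, other gene minimums, Leiden resolutions, thinning to 50000 counts, and 1 library left out. The planned comparison of epiblast-like with primitive endoderm-like cells was replaced by that of 2 sub-clusters, because no epiblast-like cluster could be named. All genes of interest are named; from the 3 lists the text names the genes that passed, at most 4 per list and direction, plus Ccn1, Ccn2, Nf2, Stk3, Stk4 and Sav1, and for Wwtr1 the 2 genes with the highest correlation. The genes, lists and alternatives were chosen with earlier results of these data known. Protein sequences were not used here.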

Additional observations from a re-analysis of the deposited data

How the results depend on the processing

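The choice of test, filter and library decided how many genes passed between TE-like and ICM-like cells, and less often their direction. Over the 9 genes and the other settings, 150 fitted values kept their direction and side of the threshold, 15 passed newly, 8 lost the call and 6 changed sign. Against 1 of the 9 genes and 705 of all genes with edgeR, DESeq2 called 4 and 1652, a limma fit of mean log2 values 3 and 1364, and thinned cells 2 of the 9. The minimums of 1000 and of 4000 genes per cell, and leaving out large cells, each called 3 of the 9. Without the replicate block edgeR called 0 of the 9 (0 at an unadjusted p below 0.05) and 0 of all genes (660 unadjusted), and without 1 library 0 of the 9 (3 to 5 unadjusted) and 230 to 311 of all genes.

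The settings chosen after seeing the data were the clusters and the barcode sets. TE-like cluster A alone gave 2 of the 9 genes and 692 of all genes, and cluster B alone gave 1 and 285. Barcodes 1 to 32, 33 to 64 and 65 to 96 gave 1, 0 and 0 of the 9 (3, 2 and 1 unadjusted) and 364, 168 and 6 of all genes, with fewer cells each.

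The lists of Hippo, target and polarity genes, the last with contractility and junction genes, had 2, 1 and 4 genes called. DESeq2 called 6 Hippo genes (3 higher in TE-like cells) and 8 polarity genes (7 higher), limma 6 Hippo genes (3 higher), and both gene minimums 4 Hippo genes (2 higher). Without the replicate block each list had 0. Cluster A alone gave 1 Hippo and 2 polarity genes, and cluster B alone 1 Hippo and 0 target genes. Barcodes 1 to 32 and 33 to 64 each gave 1 Hippo and 2 polarity genes, and barcodes 65 to 96 gave 0 in each list. Without 1 library the counts were 0 to 1 Hippo, 0 target and 2 to 3 polarity genes. The cause was not tested.

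Between TE-like clusters A and B, where edgeR called 1 gene, DESeq2 called 422, the fit without the replicate block 0 (319 unadjusted), and the fits without 1 library 0 to 180. Between the ICM-like sub-clusters, with 15 genes called, DESeq2 called 421 and 1 of the 9 genes, the fit without the replicate block 0 (356 unadjusted), and the fits without 1 library 17 to 127.

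These values changed sign, on the log2 scale. Between TE-like and ICM-like cells, Amot was -0.16 with cluster A alone, and Lats1 was 0.16 with cluster B alone, 0.17 with at least 4000 genes and 1.66 in barcodes 33 to 64, where Tead2 was -0.18 and Lats2 -0.60. Between clusters A and B, Lats2 ranged from -0.42 to 0.37 with 1 library left out, below 0 without replicate 2. Between the ICM-like sub-clusters, Yap1 was -0.016 with DESeq2, and Tead1, Yap1 and Amot were -0.19, -0.10 and -0.16 without the replicate block. There, with 1 library left out, Tead1 ranged from -0.48 to 1.23 and Lats2 from -0.45 to 0.45, both below 0 without replicate 2. Yap1 ranged from -0.40 to 0.46, Lats1 from -0.56 to 3.01 and Amot from -0.98 to 1.29, each below 0 without replicate 3. None of these values passed the threshold before or after.

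Depth limits the low genes most. Thinning to 50000 counts per cell moved 19 of 20 shares of cells with a count, and 10 of 40 correlations with Cdx2 or Gata3. Protein identity between related genes, planned at the start, was not run.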
